A study of Homo sapiens with 20 samples.

Results

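The EGF-family ligands examined here are HBEGF, TGFA, AREG, EREG, BTC and NRG1, taken from the deposited RNA sequencing table by gene symbol. All 6 were found among its 21201 symbols. RNA was measured in 5 established human tumor cell lines, in bulk, after 24 h with the tankyrase inhibitor G007-LK at 1 µM or with its solvent DMSO at 0.01%. The TNKSi-sensitive lines, chosen by the study because tankyrase inhibition (TNKSi) slowed their growth, come from colon (COLO 320DM), kidney (UO-31), ovary (OVCAR-4) and lung (ABC-1). A second colon line, RKO, served as the insensitive control. For every line there were 2 libraries with DMSO and 2 with G007-LK, described as biological replicates, so 20 libraries were compared. With RKO as the only insensitive line, insensitivity and RKO itself cannot be told apart.

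EGF-family ligands are made as membrane-anchored precursors, and proteases of the ADAM family cut them from the cell surface. The released part carries an EGF-like domain, folded by 6 cysteines, which binds receptors of the ERBB family and makes them pair and phosphorylate each other. TGFA and AREG bind EGFR, HBEGF, EREG and BTC bind EGFR and ERBB4, and NRG1 binds ERBB3 and ERBB4. In epithelial tumors these ligands are known for autocrine growth signaling, in which a cell answers to the ligand it sheds.

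The genes lie on 4 chromosomes (GRCh37). HBEGF is at chr5:139712428-139726188 on the minus strand and TGFA at chr2:70674416-70781325 on the minus strand. EREG (chr4:75230862-75254466, plus strand), AREG (chr4:75310853-75320722, plus strand) and BTC (chr4:75669969-75719733, minus strand) are neighbours on chromosome 4, and NRG1 lies apart from all of these. The coding sequence of the EGF-like domain is shown for 5 of the ligands, from the first to the sixth cysteine and with the cysteine codons in capitals, because it is the part that makes them one family and the part that differs between them. Each stretch is 108 bases long, codes for 36 residues, and is divided between exons 3 and 4 of its gene.

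HBEGF: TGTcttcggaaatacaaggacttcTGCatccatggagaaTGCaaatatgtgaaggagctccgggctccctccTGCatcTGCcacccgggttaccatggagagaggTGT
EREG: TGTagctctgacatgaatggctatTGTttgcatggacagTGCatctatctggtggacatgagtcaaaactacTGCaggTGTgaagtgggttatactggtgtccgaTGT
BTC: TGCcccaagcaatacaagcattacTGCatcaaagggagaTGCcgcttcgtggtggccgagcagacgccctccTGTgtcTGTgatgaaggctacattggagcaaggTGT
TGFA: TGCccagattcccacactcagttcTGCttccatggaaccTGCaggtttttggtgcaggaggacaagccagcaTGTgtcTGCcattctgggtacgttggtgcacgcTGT
AREG: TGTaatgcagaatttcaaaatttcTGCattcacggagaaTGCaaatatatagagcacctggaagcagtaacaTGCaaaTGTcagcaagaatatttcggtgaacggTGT

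The capitals stand at the same places in all 5 stretches, and the codons between them vary. The translated stretches were alike at 30.6% (AREG and BTC) to 52.8% (AREG and HBEGF, BTC and TGFA) of their 36 residues. AREG is unlike the others in having a near-identical copy. This gene, AREGB, lies at chr4:75480629-75490486, and its transcript matched that of AREG at 1233 of 1234 aligned bases. Since the alignment allowed up to 2 mismatches and AREGB had no row in the table, reads shared by the copies could have been split or dropped in the authors' counting, and every AREG value below is uncertain. In the RefSeq promoter windows of these 5 genes (GRCh38.p14, 250 bases before to 50 after the start), the TEAD letters GGAATG or their reverse complement stood once in EREG and in none of the other 4, against 14.03% of 35116 promoters. The cyclic AMP response element TGACGTCA stood once in AREG (1.85% of promoters), TATAAA stood once in AREG and once in EREG (11.5%), and neither TGANTCA, the AP-1 letters (7.71%), nor CTTTGAT, the TCF/LEF letters (2.62%), stood in any of the 5, with both strands searched. These are matches of letters and not sites of binding.

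The table gives RPKM, reads scaled by gene length and by the mapped reads of the library. The members' values could be turned back into whole reads, because one factor per library explained 99.9% of the table's entries with a value (within 0.01 of a read), and the reads over all genes then came to between 21567440 and 23944868 in each library. These are the smallest whole numbers with the right ratios. Though the reads over genes were nearly equal, the RPKM of 1 read was not, and the sum of RPKM ran from 367196 in a COLO 320DM library to 909187 in an OVCAR-4 library. Levels in different lines are therefore given on the TPM scale too, which sets each library's sum to the same total. The 2 G007-LK libraries of UO-31 held 22585635 and 22508834 gene reads, yet the median gene had an RPKM 0.29 log2 units lower in the second of them. The median gene also changed by -0.11 log2 units in OVCAR-4 and -0.14 in ABC-1 with G007-LK, so the members' changes are given relative to that median too, by median ratio rescaling, as are the counts of the other gene lists. Markers of the labelled tissues were mixed. COLO 320DM had CDX2 at 633 RPKM and CDH17 at 4.40, but GPA33, VIL1 and CDX1 at 0.66, 0.05 and 0.01. UO-31 had PAX8 at 70.8, PAX2 at 7.15, CDH16 at 2.75 and LHX1 at 0.83. OVCAR-4 had PAX8 at 85.002, MUC16 at 10.2 and MSLN at 5.09 but WT1 at 0.09, and it also held the lung marker SFTA2 at 66.3. The kidney markers CDH16 and LHX1 stood at 3.32 and 0.94 in OVCAR-4, which like PAX8 was above UO-31, while PAX2 was at 0.02. OVCAR-4 also had the colon marker VIL1 at 4.90, and the ovary marker MSLN stood far higher in ABC-1, at 154. In ABC-1, the lung markers NAPSA, SFTPB and SFTA2 stood at 0.23, 0.05 and 0.26 RPKM, so its origin is not visible in them, and in RKO only CDX2, at 7.13 RPKM, stood above 0.1 among the 5 colon markers.

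With DMSO alone the lines differed widely in how much of each ligand they made. UO-31 held the most ligand RNA, and the 6 members added together came to 151 and 154 TPM in its DMSO libraries. The sum was 39.9 and 42.6 TPM in the ABC-1 libraries. OVCAR-4 gave 33.9 and 34.1 TPM, RKO gave 16.0 and 15.7, and COLO 320DM gave 5.34 and 6.45. HBEGF made up the largest share of the sum in each of the 10 DMSO libraries, from 41.3% in UO-31 to 89.5% in RKO. TGFA came second in all 10, although in RKO it was only 4.40% and 5.10%.

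Among pairs of lines with DMSO, 46 of 60 member comparisons (6 members, 10 pairs) passed an adjusted p of 0.05 in limma on log2(RPKM + 0.5), and 44 on the TPM scale. Such differences were common over the whole table. Of 14101 genes tested, 80.4% differed between COLO 320DM and UO-31, 87.7% between COLO 320DM and OVCAR-4, 78.1% between COLO 320DM and ABC-1, and 74.9% between COLO 320DM and RKO. The share was 86.2% for UO-31 and OVCAR-4, 79.3% for UO-31 and ABC-1, 77.4% for UO-31 and RKO, 86.9% for OVCAR-4 and ABC-1, 86.9% for OVCAR-4 and RKO, and 76.5% for ABC-1 and RKO. The members' share was thus near that of the table at large. A gene was kept if any line averaged at least 1 RPKM with DMSO. The 60 therefore include pairs of lines in which neither had a DMSO read of NRG1 or BTC. The order of the lines is the more informative part.

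HBEGF, which is also known as the receptor of diphtheria toxin, was highest in UO-31 at 64.7 ± 1.55 TPM (SD, n = 2), followed by ABC-1 at 29.3 ± 2.26, OVCAR-4 at 16.2 ± 0.381, RKO at 14.1 ± 0.262 and COLO 320DM at 3.34 ± 0.80. On this scale each neighbour in the order differed (adjusted p at most 2.81e-05) except OVCAR-4 and RKO (log2 difference 0.19, adjusted p = 0.129). On the RPKM scale OVCAR-4 stood level with ABC-1 instead (14.6 ± 0.181 and 14.2 ± 1.56 RPKM, adjusted p = 0.741) and above RKO by 1.25 log2 units (adjusted p = 1.90e-06). The place of OVCAR-4 therefore rests on the scale, and that of the other lines does not.

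TGFA, transforming growth factor alpha, was highest in UO-31 too, at 41.6 ± 2.53 TPM, against 10.2 ± 0.204 in OVCAR-4 and 8.98 ± 0.0335 in ABC-1 (SD, n = 2). The colon lines came last, COLO 320DM at 1.88 ± 0.473 TPM and RKO at 0.752 ± 0.0677. OVCAR-4 and ABC-1 were not separated on the TPM scale (adjusted p = 0.165), whereas they differed by 1.00 log2 units in RPKM (adjusted p = 5.42e-06). COLO 320DM, the line with the least HBEGF, stood above RKO in TGFA by 0.73 log2 units on the TPM scale (adjusted p = 6.46e-05).

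**Figure D1:**
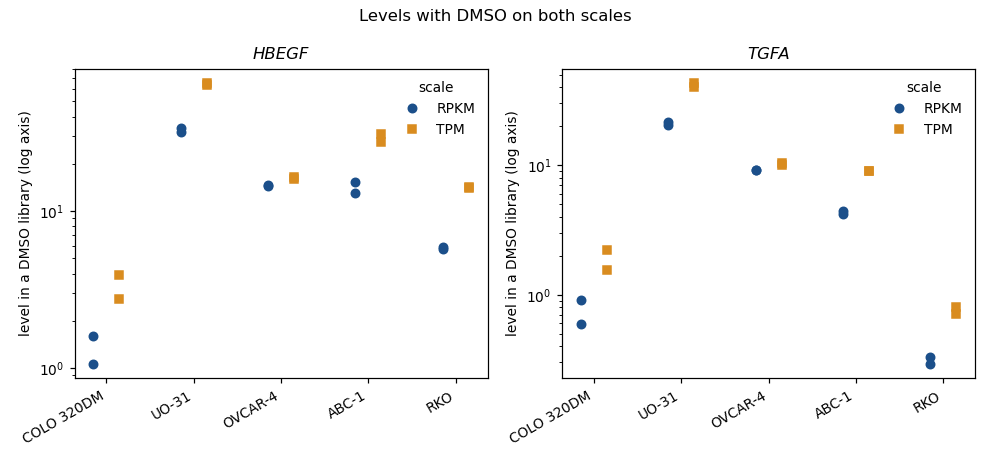
Levels of HBEGF and TGFA in the DMSO libraries of each line (log axis), as deposited RPKM (circles) and as TPM (squares), with 1 point per library. UO-31 is highest and COLO 320DM or RKO lowest on both scales, whereas OVCAR-4 is level with ABC-1 for HBEGF in RPKM and below it in TPM.

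The other members were confined to fewer lines. EREG, epiregulin, stood at 15.6 ± 0.649 TPM in UO-31 (SD, n = 2) and at 0.0922 to 0.212 TPM in the other 4 lines, none of which differed from its neighbour (adjusted p of at least 0.125). NRG1, neuregulin 1, had 24.6 ± 0.789 TPM in UO-31 and 4.74 ± 0.0328 in OVCAR-4. It had no read in any of the 12 libraries of COLO 320DM, ABC-1 and RKO. With a limit of 3 reads a library, NRG1 was at least 272.5-fold higher in UO-31 than in COLO 320DM. Against ABC-1 or RKO it was at least 305-fold higher in UO-31. BTC, betacellulin, was found in UO-31 (3.29 ± 0.0523 TPM) and OVCAR-4 (2.06 ± 0.445), at a few reads in RKO (3, 9, 9 and 5), in 1 read of ABC-1 and in none of COLO 320DM. AREG, amphiregulin, was low everywhere. Its highest value was 3.14 TPM (47 reads) with DMSO and 3.31 TPM (51 reads) with G007-LK, both in ABC-1. UO-31 was the one line in which all 6 members passed the minimum mean of 1 RPKM over its 4 libraries that was set for testing a change.

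**Figure D2:**
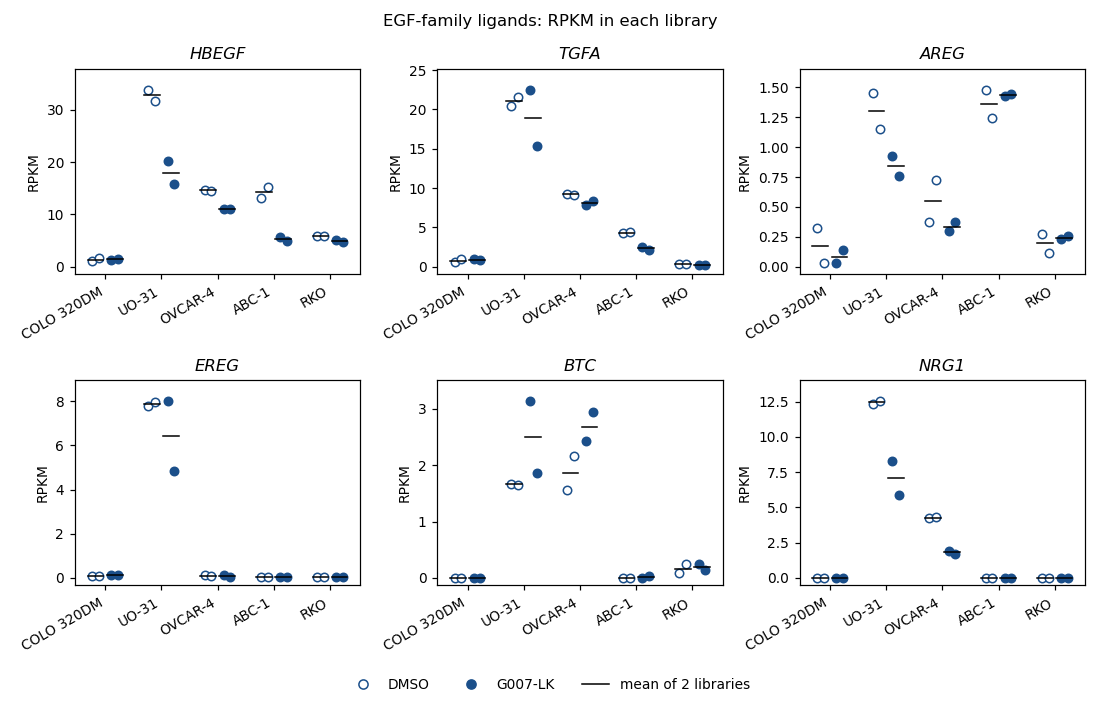
RPKM of each ligand in each library, by line, with DMSO as open and G007-LK as filled circles and the mean of 2 libraries as a bar (each panel has its own axis). HBEGF with G007-LK lies below both DMSO libraries in every line but COLO 320DM, and NRG1 does so in UO-31 and OVCAR-4, where it is found.

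Treatment with G007-LK was compared with DMSO within each line. Of 30 pairs of a member and a line, 15 passed the minimum level and were tested, of which 7 fell, 1 rose and 7 did not pass the test. A member low in both arms of a line was not tested, so these counts do not cover all pairs. In COLO 320DM the 1 member tested did not pass, where 7.70% of 11279 genes rose and 11.6% fell. In UO-31, 2 of 6 members fell and none rose, where 8.63% of 11851 genes fell and 4.79% rose. In OVCAR-4, 2 of 4 fell and 1 rose, where 39.0% of 12425 genes fell and 12.6% rose. In ABC-1, 2 of 3 fell and none rose, where 41.2% of 10910 genes fell and 16.6% rose, and in RKO the 1 member tested fell, where 2.75% of 10518 genes fell and 1.36% rose. In OVCAR-4 and ABC-1 falls were therefore so common that a fall as such sets no ligand apart, and the sizes are given below. With median ratio rescaling, 6 pairs fell and 2 rose. The shares of genes called in either direction were then 38.6% in COLO 320DM (no member), 30.1% in UO-31 (3 of 6 members), 47.0% in OVCAR-4 (3 of 4 members), 63.8% in ABC-1 (2 of 3 members) and 2.71% in RKO (no member).

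HBEGF fell in 3 of the 4 TNKSi-sensitive lines. In ABC-1 it had 13.1 and 15.3 RPKM with DMSO (779 and 851 reads) and 5.59 and 4.99 RPKM with G007-LK (345 and 330 reads). The groups did not overlap, and the fall of 1.34 log2 units (SE 0.11, adjusted p = 3.10e-32), or 2.68-fold between the means, was the largest change of any member. It was -1.20 after rescaling (adjusted p = 6.51e-09). The very small p of the first fit comes from a spread that limma shares among genes, and it should not be read as a count of replicates.

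In UO-31, HBEGF stood at 33.8 and 31.7 RPKM with DMSO (1749 and 1653 reads) and at 20.2 and 15.8 RPKM with G007-LK (939 and 900 reads). Both treated libraries lay below both controls, and they were closer in reads than in RPKM. The log2 fold change was -0.86 (SE 0.17, adjusted p = 2.43e-05), and -0.81 (SE 0.07, adjusted p = 5.29e-04) after rescaling. Without DMSO replicate 1 or 2 the adjusted p rose to 0.711 or 0.551 on the RPKM as deposited, while the log2 fold change stayed between -0.81 and -0.90. On rescaled values it passed without any one of the 4 libraries, at an adjusted p of at most 6.26e-05.

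In OVCAR-4, HBEGF had 14.8 and 14.5 RPKM with DMSO (442 and 411 reads) and 11.0 and 11.0 RPKM with G007-LK (351 and 331 reads). The replicates differed little and the groups did not overlap. The log2 fold change of -0.39 (SE 0.06, adjusted p = 2.09e-04) became -0.28 (adjusted p = 0.00254) relative to the median gene.

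COLO 320DM, the line with the least HBEGF, showed 1.06 and 1.61 RPKM with DMSO (74 and 96 reads) and 1.29 and 1.48 RPKM with G007-LK (87 and 101 reads). The treated libraries lay between the controls, and the log2 fold change was 0.05 (95% interval -0.28 to 0.39, adjusted p = 0.858). A fall of the size found in UO-31 or ABC-1 lies outside this interval. In RKO control cells, HBEGF had 5.92 and 5.77 RPKM with DMSO (403 and 384 reads) and 5.04 and 4.72 RPKM with G007-LK (332 and 308 reads). These groups did not overlap either, and the log2 fold change of -0.24 (SE 0.06) passed narrowly (adjusted p = 0.0443). That call was lost with rescaling (adjusted p = 0.0707) and without any one of the 4 RKO libraries (0.0831 to 0.194).

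NRG1 fell in both lines that had it. In OVCAR-4 its RPKM was 4.22 and 4.33 with DMSO (171 and 166 reads) and 1.90 and 1.73 with G007-LK (82 and 70 reads). The groups stood far apart, by -1.05 log2 units (SE 0.11, adjusted p = 1.05e-05), a 2.36-fold difference of the means that was -0.95 after rescaling (adjusted p = 7.75e-05). In UO-31 its RPKM was 12.4 and 12.5 with DMSO (864 and 884 reads) and 8.32 and 5.90 with G007-LK (523 and 456 reads). Both treated libraries were again below both controls, at -0.78 log2 units (SE 0.21, adjusted p = 0.00281) and -0.74 after rescaling (adjusted p = 0.00154). As for HBEGF, the UO-31 call was lost on the RPKM as deposited without DMSO replicate 1 or 2 (adjusted p = 1 for either), and was kept on rescaled values without any one library (adjusted p at most 0.00185).

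TGFA passed the filter on low values in 3 lines (ABC-1, OVCAR-4 and UO-31), and its fall passed the test in ABC-1. There it had 4.22 and 4.45 RPKM with DMSO (457 and 450 reads) and 2.55 and 2.08 RPKM with G007-LK (286 and 250 reads). The groups did not overlap, and the log2 fold change was -0.79 (SE 0.13, adjusted p = 3.99e-09), or -0.65 after rescaling (adjusted p = 2.80e-05). In OVCAR-4 it had 9.26 and 9.15 RPKM with DMSO and 7.86 and 8.31 RPKM with G007-LK, a change of -0.18 log2 units (adjusted p = 0.0547) that was -0.07 relative to the median gene. UO-31, where TGFA was highest, gave 20.5 and 21.6 RPKM with DMSO and 22.5 and 15.4 RPKM with G007-LK. The treated libraries stood on either side of the controls (-0.17 log2 units, adjusted p = 0.633), and without G007-LK replicate 1 the change was -0.44 (adjusted p = 1.68e-04). In COLO 320DM (0.591, 0.912, 0.952 and 0.862 RPKM, DMSO first) and RKO (0.291, 0.331, 0.251 and 0.253) TGFA was below the minimum for a test. The 2 treated RKO libraries lay under both controls, at 30 and 30 reads against 36 and 40.

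BTC was the one member that rose. In OVCAR-4 it had 1.56 and 2.16 RPKM with DMSO (26 and 34 reads) and 2.43 and 2.94 RPKM with G007-LK (43 and 49 reads). The groups did not overlap, and the log2 fold change was 0.44 (SE 0.15, adjusted p = 0.0250), or 0.53 after rescaling (adjusted p = 0.0123). Leaving out DMSO replicate 1 ended that call (adjusted p = 0.214), as did leaving out the second G007-LK library (adjusted p = 0.127), testing without a filter on low values (adjusted p = 0.0753), and 1 fit over all 20 libraries (adjusted p = 0.0702). In UO-31 BTC had 1.67 and 1.66 RPKM with DMSO (48 and 48 reads) and 3.14 and 1.86 RPKM with G007-LK (81 and 59 reads). Both treated libraries were higher, one of them by little, and the change of 0.44 log2 units passed only after rescaling (adjusted p = 0.188 as deposited, 0.0441 rescaled). With G007-LK replicate 1 left out it was 0.12 (adjusted p = 0.391).

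EREG and AREG passed the test in no line. EREG in UO-31 had 7.77 and 7.99 RPKM with DMSO (781 and 810 reads) and 8.01 and 4.86 RPKM with G007-LK (724 and 540 reads). The groups overlapped in RPKM, though not in reads (-0.31 log2 units, adjusted p = 0.409). Without G007-LK replicate 1 the change was -0.64 (adjusted p = 3.99e-05), and without replicate 2 it was 0.02. AREG in UO-31 had 1.45 and 1.15 RPKM with DMSO (40 and 32 reads) and 0.927 and 0.755 RPKM with G007-LK (23 and 23 reads). These values did not overlap, and the change of -0.42 log2 units did not pass (adjusted p = 0.196), except without G007-LK replicate 1 (adjusted p = 0.0146) or with quantile normalization (adjusted p = 0.0268). AREG in ABC-1 had 1.48, 1.25, 1.43 and 1.45 RPKM (DMSO first), with no change found (0.06 log2 units, 95% interval -0.21 to 0.32).

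**Figure D3:**
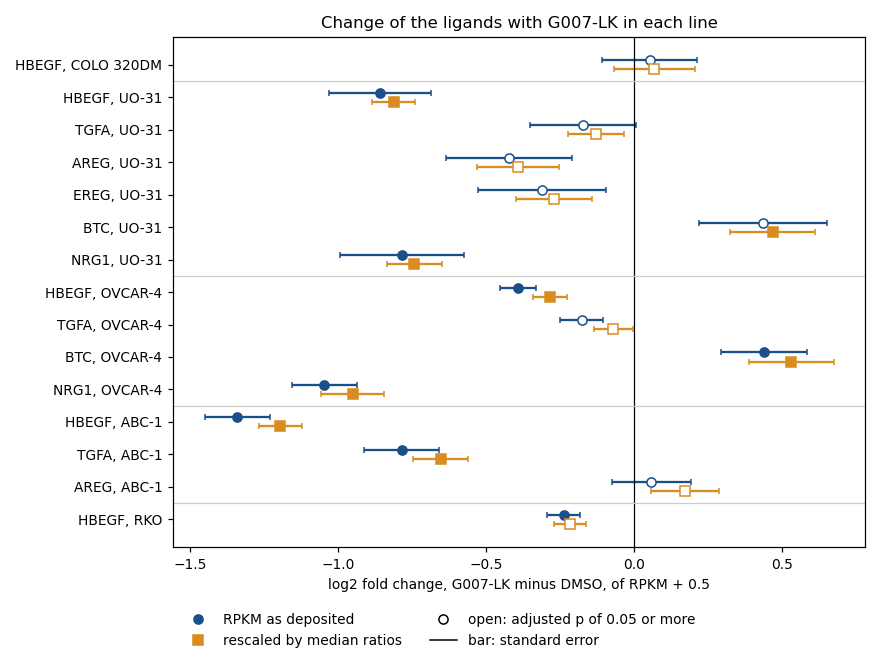
Log2 fold change (G007-LK minus DMSO, of RPKM + 0.5) of each ligand tested in each line, with standard errors, as deposited (circles) and after median ratio rescaling (squares). Open symbols did not pass an adjusted p of 0.05. HBEGF in ABC-1 fell most, and rescaling moved each value by less than 0.15.

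The makeup of the ligand RNA shifted with these changes. In ABC-1 the sum of the 6 members went from 39.9 and 42.6 TPM with DMSO to 21.6 and 19.6 TPM with G007-LK, and the share of HBEGF in it from 69.4% and 72.7% to 58.3% and 58.1%. TGFA, which fell too, still rose as a share, from 22.4% and 21.2% to 26.6% and 24.2%. In UO-31 the sum went from 151 and 154 TPM to 121 and 97.1 TPM, and there TGFA replaced HBEGF as the largest part of 1 G007-LK library (35.7% against 32.0% in replicate 1). In OVCAR-4 the sum went from 33.9 and 34.1 TPM to 27.4 and 27.7 TPM, with NRG1 passing from 13.9% and 13.99% to 8.05% and 7.06% and BTC from 5.16% and 6.97% to 10.3% and 12.03%. RKO went from 16.0 and 15.7 TPM to 14.4 and 13.2 TPM, with HBEGF at 86.6% or more in all 4 libraries, and COLO 320DM had 5.34 and 6.45 TPM with DMSO and 6.19 and 7.08 TPM with G007-LK. These sums and shares are descriptions and were not tested.

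**Figure D4:**
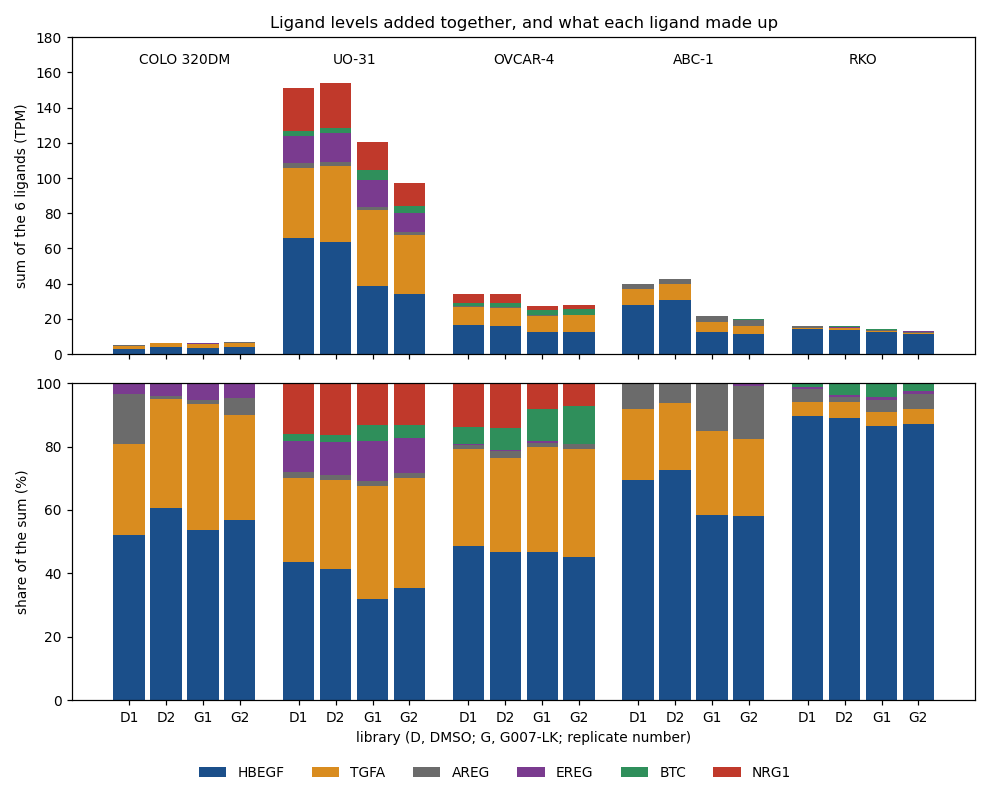
Sum of the 6 ligands in TPM (top) and the share of each in it (bottom) for the 20 libraries (D, DMSO; G, G007-LK; number, replicate). UO-31 has the highest sum, the sum with G007-LK is below both DMSO libraries in every line but COLO 320DM, and HBEGF is the largest part in all libraries except UO-31 G007-LK replicate 1.

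Whether a line's change differed from that of RKO was tested as the interaction of treatment and line. HBEGF was the member with enough RNA in both arms of RKO for this comparison. Its change in ABC-1 was -1.10 log2 units beyond that in RKO (SE 0.12, adjusted p = 1.06e-05), in a comparison where 46.8% of 11368 genes were called. In UO-31 the difference was -0.62 (95% interval -1.02 to -0.21) and did not pass as deposited (adjusted p = 0.0781, 6.16% of 11816 genes called), though it did on rescaled values (-0.57, adjusted p = 0.00240). In OVCAR-4 it was -0.15 (95% interval -0.32 to 0.01, adjusted p = 0.124, 35.4% of 12224 genes called) and in COLO 320DM 0.29 (95% interval -0.13 to 0.71, adjusted p = 0.356, 11.6% of 11397 genes called). The UO-31 difference also passed on the recovered reads (-0.58, adjusted p = 0.00420), with quantile normalization, with equal sums of RPKM and without either G007-LK library, but with no other pseudocount or filter tried. A larger HBEGF fall than that of RKO was thus shown in ABC-1, while in UO-31 the call depended on the scaling and on the libraries used. TGFA also passed in ABC-1 (-0.68 log2 units, SE 0.13, adjusted p = 8.60e-04), but it met the filter through its level in ABC-1. RKO had only 30 to 40 TGFA reads a library, where this scale understates a change. On the recovered reads the TGFA difference was -0.48 (adjusted p = 0.210). NRG1 also passed in OVCAR-4 (adjusted p = 3.01e-04), but since RKO had no NRG1 read that value is the change of OVCAR-4 itself.

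An F test over all 20 libraries asked whether the change was the same in the 5 lines. It was called for 41.4% of 14199 genes, and for 3 of the 6 members, namely HBEGF (F = 16.5, adjusted p = 2.07e-04), NRG1 (F = 21.9, adjusted p = 5.29e-05) and TGFA (F = 5.73, adjusted p = 0.0164). For TGFA it was lost on the recovered reads (adjusted p = 0.163) and without ABC-1 DMSO replicate 2 (0.0665) or ABC-1 G007-LK replicate 2 (0.0916). NRG1 entered with 3 lines at 0, and on the recovered reads it was lost as well (adjusted p = 0.446). AREG, BTC and EREG did not pass (adjusted p = 0.335, 0.284 and 0.443).

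The ligands' receptors were spread unevenly. EGFR, the receptor of TGFA, AREG, HBEGF, EREG and BTC, had 81.8 and 110 TPM in the DMSO libraries of ABC-1 and 51.8 and 54.9 TPM in those of UO-31. OVCAR-4 had 19.3 and 21.4 TPM of it, RKO 9.06 and 8.32, and COLO 320DM 0.191 and 0.311. COLO 320DM therefore had the least of both HBEGF and EGFR. ERBB2, which has no ligand of its own and pairs with the others, ran from 29.5 to 119 TPM over the DMSO libraries of the 5 lines. ERBB3, a receptor of NRG1, had 48.9 and 52.7 TPM in ABC-1 and 17.5 and 16.96 in OVCAR-4, with 0.697 to 2.25 in the DMSO libraries of the other lines. ABC-1 thus stood further above OVCAR-4 in ERBB3 than on the RPKM scale (23.0 and 26.0 against 15.6 and 15.4). ERBB4 was found in OVCAR-4 (6.28 and 6.41 TPM) and stood at 0.207 or less in the DMSO libraries elsewhere. OVCAR-4 was thus the line with NRG1 and both of its receptors, whereas UO-31, with more NRG1, had little ERBB3 (1.32 and 1.59 TPM) and ERBB4 (0.113 and 0.207). These receptor levels were not tested between lines.

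With G007-LK, all 4 receptors changed in OVCAR-4, where 51.5% of all genes tested were called. EGFR went from 17.3 and 19.4 RPKM with DMSO to 7.80 and 7.69 with G007-LK (-1.19 log2 units, SE 0.07, adjusted p = 1.11e-07), and ERBB4 from 5.62 and 5.83 to 4.24 and 4.00 (-0.43, adjusted p = 0.00151). ERBB3 rose from 15.6 and 15.4 to 21.7 and 21.4 (0.46, adjusted p = 3.02e-05) and ERBB2 from 45.5 and 43.9 to 51.5 and 54.4 (0.24, adjusted p = 0.00108). No group of these 4 overlapped, and the same calls stood after rescaling. In ABC-1, ERBB3 rose from 23.0 and 26.0 to 35.7 and 32.0 RPKM (0.46, adjusted p = 3.99e-07), while the fall of EGFR from 38.6 and 54.6 to 34.2 and 26.3 (-0.60, adjusted p = 0.0187) was lost after rescaling (adjusted p = 0.104). ERBB2 there passed only after rescaling (0.19 log2 units, adjusted p = 0.00789). In UO-31, EGFR had 26.6 and 27.3 RPKM with DMSO, and 31.8 and 13.1 with G007-LK. Its treated libraries thus lay on either side of the controls (adjusted p = 0.320), as did those of TGFA. None of the 3 receptors tested in RKO passed, nor did ERBB2, the one tested in COLO 320DM.

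**Figure D5:**
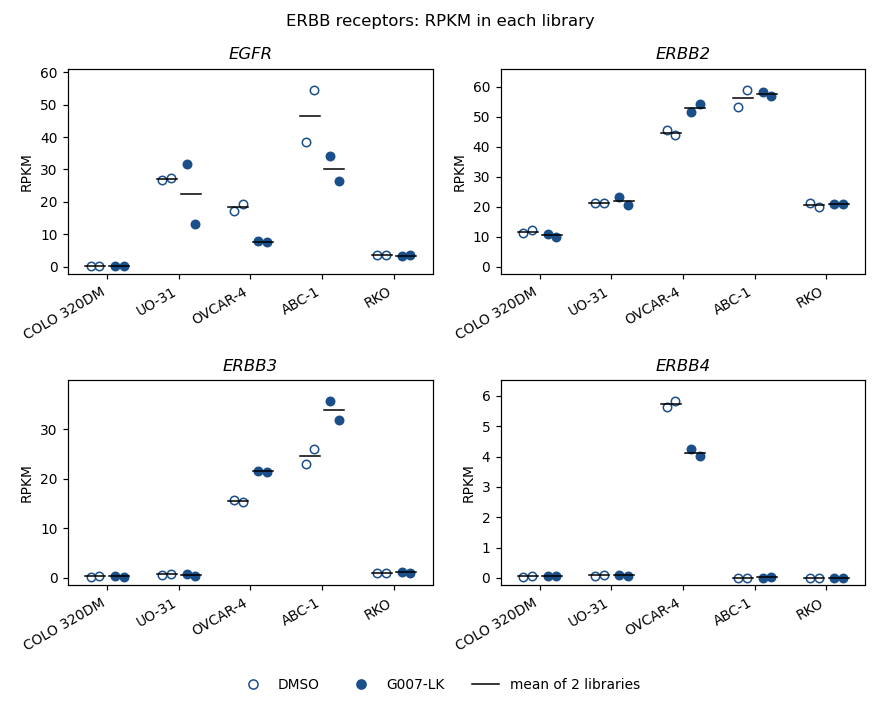
RPKM of the ERBB receptors in each library, by line, with DMSO as open and G007-LK as filled circles and the mean of 2 libraries as a bar (each panel has its own axis). EGFR is lower and ERBB3 higher with G007-LK in OVCAR-4 and ABC-1, and the G007-LK libraries of UO-31 differ from each other in EGFR.

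Of the other 5 ligands of the family, EGF and EPGN passed the minimum level in no line, NRG2 passed it in UO-31, NRG3 in ABC-1, and NRG4 in both of ABC-1 and OVCAR-4 and in COLO 320DM too. NRG4, a ligand of ERBB4, fell in ABC-1 from 1.60 ± 0.0836 to 1.09 ± 0.0287 RPKM (SD, n = 2; -0.40 log2 units, adjusted p = 0.00618), and on the recovered reads that call was lost (adjusted p = 0.0585). NRG2 in UO-31 had 2.22 ± 0.153 and 2.61 ± 0.681 RPKM and did not pass (adjusted p = 0.701). Since NRG1 had no read in ABC-1 or COLO 320DM, the neuregulins found in those lines were NRG3 and NRG4 in the former and NRG4 in the latter.

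Genes that shed or route the ligands were examined as a list of 7 (ADAM17, ADAM10, RHBDF1, RHBDF2, RHBDL2, NRD1 and CD9). None of the members tested passed in COLO 320DM (5 tested) or UO-31 (7 tested). In OVCAR-4, 1 of 7 rose and 2 fell, in ABC-1, 1 of 6 rose and 4 fell, and in RKO, 1 of 6 rose. Over all genes, 12.6% rose and 39.0% fell in OVCAR-4, and 16.6% rose and 41.2% fell in ABC-1, so falls on any list in these lines stand against many. In RKO 1.36% of all genes rose. With rescaling, 3 of these genes rose in UO-31, 1 fell in COLO 320DM, 2 rose and 1 fell in OVCAR-4, 1 rose and 2 fell in ABC-1, and 1 rose in RKO. All genes called in either direction then came to 30.1% in UO-31, 38.6% in COLO 320DM, 47.0% in OVCAR-4, 63.8% in ABC-1 and 2.71% in RKO. The list's median log2 fold change, as deposited, was -0.01 in OVCAR-4 and -0.27 in ABC-1, against -0.11 and -0.14 over all genes tested. CD9, a membrane protein that binds the HBEGF precursor, rose in ABC-1 from 356 ± 7.86 to 710 ± 17.8 RPKM (0.99 log2 units, adjusted p = 3.93e-88), and by 0.13 in OVCAR-4 (0.24 rescaled) and 0.12 in RKO. RHBDF2, an iRhom that brings ADAM17 to the surface, fell in ABC-1 from 5.28 ± 0.421 to 2.94 ± 0.0618 RPKM (-0.75, adjusted p = 1.05e-08). ADAM10, the sheddase of EGF and BTC, fell in OVCAR-4 (57.2 ± 2.45 to 39.5 ± 0.106 RPKM, -0.53, adjusted p = 3.32e-06) and in ABC-1 (58.3 ± 8.19 to 43.4 ± 5.49, -0.42, adjusted p = 1.76e-07, and -0.27 rescaled).

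Of 8 genes that restrain ERBB receptors, 1 fell in COLO 320DM, 1 rose in UO-31, 5 fell in OVCAR-4, 3 rose and 2 fell in ABC-1, and 1 rose in RKO. Over all genes, 11.6% fell in COLO 320DM, 4.79% rose in UO-31, 39.0% fell in OVCAR-4 and 1.36% rose in RKO. In ABC-1, 16.6% of all genes rose and 41.2% fell. With rescaling, 3 of these 8 rose and 2 fell in COLO 320DM and 3 fell in OVCAR-4, and the counts of the other lines were the same. Rescaled shares of all genes called in either direction were 38.6% in COLO 320DM, 30.1% in UO-31, 47.0% in OVCAR-4, 63.8% in ABC-1 and 2.71% in RKO. CBLB, a ubiquitin ligase that marks receptors for breakdown, rose in UO-31 (12.4 ± 0.577 to 22.7 ± 5.56 RPKM, 0.82 log2 units, adjusted p = 2.84e-04), ABC-1 (0.64, adjusted p = 3.65e-06) and RKO (0.25, adjusted p = 0.0165). LRIG1, a membrane protein that lowers receptor levels, moved both ways, since it fell in COLO 320DM (9.16 ± 1.17 to 5.21 ± 0.445, -0.75, adjusted p = 0.00143) and OVCAR-4 (-0.29, or -0.18 rescaled) and rose in ABC-1 (0.50, adjusted p = 2.32e-04). Of 6 adaptors that carry the signal from the receptors, 1 rose in COLO 320DM, 3 fell in OVCAR-4, 2 fell in ABC-1 and none passed in UO-31 or RKO. Over all genes, 7.70% rose in COLO 320DM, 39.0% fell in OVCAR-4 and 41.2% fell in ABC-1. With rescaling, 2 of these adaptors rose in COLO 320DM, 1 fell in OVCAR-4, 1 rose and 2 fell in ABC-1, and again none passed in UO-31 or RKO. PTPN11, the phosphatase SHP2, fell in OVCAR-4 (-0.45, adjusted p = 8.15e-06, and -0.34 rescaled) and ABC-1 (-0.63, adjusted p = 6.34e-13, and -0.48 rescaled).

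Of 16 genes known to respond to ERK, the kinase at the end of the RAS pathway, 1 of 9 tested fell in COLO 320DM, 2 of 14 fell in UO-31, 2 rose and 5 fell of 15 in OVCAR-4, and 2 rose and 10 fell of 14 in ABC-1, while 1 of 15 rose in RKO. Falls over all genes came to 39.0% in OVCAR-4 and 41.2% in ABC-1, against 8.63% in UO-31 and 11.6% in COLO 320DM. Rises over all genes came to 12.6% in OVCAR-4, 16.6% in ABC-1 and 1.36% in RKO. With rescaling, 2 fell in COLO 320DM, 1 rose and 3 fell in UO-31, 4 rose and 5 fell in OVCAR-4, 2 rose and 9 fell in ABC-1, and 1 rose in RKO. Of all genes, 38.6% were then called either way in COLO 320DM, 30.1% in UO-31, 47.0% in OVCAR-4, 63.8% in ABC-1 and 2.71% in RKO. The list's median log2 fold change in ABC-1 was -0.39, against -0.14 over all genes. EPHA2, a receptor tyrosine kinase, fell in ABC-1 from 44.9 ± 3.74 to 18.0 ± 0.885 RPKM (-1.29, adjusted p = 2.18e-49), in OVCAR-4 from 105 ± 3.40 to 67.5 ± 0.540 (-0.63, adjusted p = 2.84e-07) and in UO-31 from 78.0 ± 2.64 to 59.3 ± 8.22 (-0.40, adjusted p = 0.0345). FOSL1, an AP-1 subunit, fell in UO-31 (140 ± 0.790 to 88.5 ± 11.5 RPKM, -0.67, adjusted p = 6.52e-06) and OVCAR-4 (-0.76, adjusted p = 4.76e-07). EPHA2 thus fell in the 3 sensitive lines in which HBEGF fell, though its UO-31 call was lost without a filter on low values (adjusted p = 0.142, limma). In RKO, where HBEGF also fell as deposited, no gene of this list fell. In COLO 320DM, where no fall of HBEGF was found, ETV5, an ETS factor, went from 11.6 ± 1.40 to 3.02 ± 0.424 RPKM (-1.79, adjusted p = 1.63e-07). DUSP5, a phosphatase of ERK, and PHLDA1 fell in ABC-1 by 1.02 and 0.98 log2 units. The overlap of these lists with the ligands was not tested.

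The genes most like each member over the 20 libraries were found among those with a mean of at least 1 RPKM in every line. In level, HBEGF was most like IL6ST (Pearson r = 0.966), BCAS4 (0.966) and HMGA2 (0.962), and TGFA most like MPRIP (0.981). NRG1 was most like POFUT2 (0.983) and EREG most like EPS8 (0.990), an adaptor of EGFR. After each line's mean was taken off, HBEGF was most like C1orf112 (0.982), ESCO2 (0.981) and OXNAD1 (0.980), TGFA most like NFKB1 (0.983), and NRG1 most like LMO7 (0.931). The best match of AREG reached only 0.717 (TMEM161A). The 20 points share lines, depth and library factors, so these values are descriptions. In bulk libraries, fewer cells making a ligand and less of it per cell cannot be told apart.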

How the data were processed

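Poly(A) RNA of 20 libraries was cut to pieces of about 200 bp for sequencing on the HiSeq 2000. Alignment by the authors used SOAPaligner/SOAP2 (version not stated in the sources read here) and the genes of hg19, allowing 2 mismatches, and the deposited table holds 1 RPKM value per gene and library. Empty cells were read as 0. The table's 21610 entries include 8 that name no gene, which were dropped (0.00134% of the RPKM of a library or less), and the 371 symbols on several entries, NRG1 among them, were joined. The deposited tables of the authors' own comparisons (log2 ratios and NOISeq scores) were not used.

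In each line, limma (3.58.1, with R 4.3.3 and statmod 1.5.0) was run on log2(RPKM + 0.5) for the genes that averaged 1 RPKM or more over the line's 4 libraries, with a variance trend and robust estimation, two-sided, with Benjamini-Hochberg adjustment over all genes tested and a threshold of 0.05. A fold change on this scale understates that of low genes. For the comparisons with RKO, the filter was a mean of at least 1 over the 8 libraries of both lines, which AREG reached in none. For the F test and the pairs of lines with DMSO, it was a mean of at least 1 in any line. An exact permutation test of 2 against 2 libraries cannot go below p = 0.333, so none was used. Whether replicates came from separate cultures is as the labels say, and p-values measure the spread between these libraries only. The fits were tested on simulated data. Alternatives were other pseudocounts, filters, normalizations, a replicate block, 1 fit over all libraries, a noise rule like that of NOISeq, and leaving out libraries. Voom on the recovered reads, rescaling with a library left out in UO-31, and a crossed block were added after seeing the data. For low members the number of recovered reads sets a counting error, and the spread between replicate libraries comes on top of it.

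The members and gene lists were chosen with earlier results of these data known. Named genes are the 6 members, the 4 receptors, up to 3 of the largest called changes per line in each list, and the 3 genes most like each member, of which not all are printed. EGF-like stretches were found by the pattern C, 7, C, 4 or 5, C, 10 to 13, C, 1, C, 5 residues, then G, 1 residue, R and C, which corrects a mistyped pattern that matched no member. They were read from GRCh37 with GENCODE v44 lifted annotation, and the transcripts used were those coding for the stretch. No protein table was used. Gene sequence of NRG1 is not reported here. Python 3.11.15, numpy 2.4.6, pandas 2.3.3, Biopython 1.88 and matplotlib 3.10.9 were used.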

Additional observations from a re-analysis of the deposited data

Results flagged for a closer look

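HBEGF changed differently with G007-LK in ABC-1 and in RKO, by the test of the difference itself. The log2 fold change was -1.34 in ABC-1 and -0.24 in RKO, and the difference was -1.10 (SE 0.12, adjusted p = 1.06e-05 in limma). Both treated libraries of ABC-1 lay below both controls, as did those of RKO, so the lines differed in the size of the fall. The TGFA value between the same lines was -0.68 log2 units (SE 0.13, adjusted p = 8.60e-04 in limma), with 250 to 457 reads a library in ABC-1 and 30 to 40 in RKO. In RKO alone TGFA was below the minimum for a test, so it entered through its level in ABC-1. Its RKO reads went from 76 with DMSO to 60 with G007-LK. Log2(RPKM + 0.5) understates such a change in a low gene, so a difference from RKO is not shown by this value. On the recovered reads the TGFA difference was -0.48 and did not pass (adjusted p = 0.210, limma with voom). Over all 5 lines the change of HBEGF (F = 16.5, adjusted p = 2.07e-04) and that of TGFA (F = 5.73, adjusted p = 0.0164) differed among lines. The TGFA call was lost on the recovered reads (adjusted p = 0.163, F test). Groups of 2 libraries allow no test for an outlying library.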

How the results depend on the processing

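The falls of HBEGF in 3 sensitive lines (UO-31, ABC-1 and OVCAR-4), of NRG1 in OVCAR-4 and of TGFA in ABC-1 kept their direction in every limma alternative in which they were tested and passed in each, except HBEGF in UO-31 without either DMSO library. The number of members called in UO-31 was 2, and 1 without a filter on low values (NRG1 was lost, adjusted p = 0.0655), 4 with rescaling and without G007-LK replicate 1, and 0 to 5 when each library was left out. In OVCAR-4 it was 3, from 2 to 3 without each library, and 2 without a filter on low values or with 1 fit over all 20 libraries, where BTC was lost, or with a minimum mean of 5 RPKM, which NRG1 and BTC did not reach and at which TGFA passed (adjusted p = 0.0468). In ABC-1 it was 2 (1 with a minimum mean of 5 RPKM, which TGFA did not reach), and in RKO 1. The RKO call was 0 without a filter, with median ratio rescaling, quantile normalization, equal sums of RPKM, a replicate block, voom on the recovered reads, 1 fit over all 20 libraries, and without any one library. In COLO 320DM it was 0 throughout. Of all genes, limma called 13.4% in UO-31, 51.5% in OVCAR-4, 57.9% in ABC-1, 4.11% in RKO and 19.3% in COLO 320DM as deposited. Without a filter these shares were 4.32%, 30.0%, 35.4%, 0.423% and 7.06%. The NOISeq noise rule (score above 0.8) called 1 member in UO-31 and 1 in ABC-1 (HBEGF in both) and 0 in OVCAR-4 and RKO. That rule was applied to the members only, so how common a call is under it was not tested.

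Members differing from RKO in UO-31 numbered 0 as deposited, 2 with median ratio rescaling, quantile normalization or equal sums, and 1 with a pseudocount of 1, with the replicate block, or with voom on the recovered reads. Of all genes, 6.16% were called as deposited, and 22.7%, 24.2% and 20.5% with those scalings in turn. With the alternatives named last it was 6.42%, 7.41% and 17.7%, so the members' counts moved along with calls over all genes. In COLO 320DM, HBEGF was the member tested and did not pass as deposited (11.6% of all genes called). In OVCAR-4 the number was 1 (35.4% of all genes called), and 0 with a minimum mean of 5 RPKM (42.7%) or with voom (28.1%). In ABC-1 it was 2 (46.8%), and 1 under the same alternatives (53.1% and 47.4%). The 1 in OVCAR-4 was NRG1, which had no read in RKO, so its value is the change of OVCAR-4 itself. NRG1 was also 1 of the 2 in UO-31 with median ratio rescaling. Of the 2 in ABC-1, TGFA passed the filter through its level in ABC-1 alone. Members whose change differed among lines numbered 3 (41.4% of all genes called), and 1 with voom (51.6%). The cause of these shifts was not tested.

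The values that changed sign did not pass, neither as deposited nor under the alternative. HBEGF in COLO 320DM was -0.028 with quantile normalization and -0.16 to 0.27 without each library. Without G007-LK replicate 1 or 2 of UO-31, TGFA was -0.44 or 0.094 there and EREG -0.64 or 0.022, of which the values without replicate 1 passed. AREG in ABC-1 ran from -0.032 to 0.15 without each library. The TGFA change beyond that of RKO was -0.06 in UO-31, and 0.046 with a pseudocount of 0.1, 0.0015 with rescaling, 0.15 with voom, and -0.33 to 0.20 without each library. In OVCAR-4 it was -0.07, and 0.037 with a pseudocount of 0.1, 0.064 with rescaling, 0.0023 with equal sums and 0.19 with voom.

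The replicate numbers carry no stated pairing. Deviations of same-numbered libraries correlated at -0.25 in COLO 320DM and ABC-1, -0.02 in UO-31, 0.005 in OVCAR-4 and 0.06 in RKO. A replicate block called 2 members in UO-31, 4 in OVCAR-4 (TGFA was added, adjusted p = 0.0445), 2 in ABC-1 and 0 in RKO (HBEGF, adjusted p = 0.0747), and TGFA did not pass the test among lines (adjusted p = 0.0611). The block called 12.4% of all genes in UO-31, 55.8% in OVCAR-4, 44.9% in ABC-1 and 1.43% in RKO. Crossed pairing, chosen after seeing the data, called 0 members in COLO 320DM (46.1% of all genes) and 2 in ABC-1 (71.6%). Over all genes, calls went from 2178 to 4351 in COLO 320DM and from 1591 to 3564 in UO-31 with rescaling, to 763 and 5203 in COLO 320DM with the block and the crossed block, and to between 56 and 7483 in UO-31 when each library was left out. AREG rests on 1 to 51 reads a library, which limits the change that could be detected.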
